A study of Mus musculus with 7 samples.

Results

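Glycogen is the branched glucose polymer in which liver stores sugar, and the results here concern 9 mouse genes that build it, break it down or control those steps: Ugp2, Gyg, Gys2, Gbe1, Pygl, Phka2, Ppp1r3b, Ppp1r3c and Ppp1r3g. They were chosen by gene symbol from the deposited mRNA table, which lists 22564 genes, and each symbol stood on 1 line. The table holds 7 liver libraries of C57bl/6 mice, 3 given phosphate-buffered saline (PBS) and 4 given parathyroid hormone (PTH), a peptide hormone whose receptor raises cyclic AMP. The series concerns signalling by the PTH receptor in liver fibrosis. Titles carry the codes C (PBS) and C+P (PTH). The meaning of C is not stated, so a treatment common to all 7 livers cannot be told apart from none. The labels give no genotype change, dose, duration, age or sex, and whether a library stands for its own animal is not stated either. The p-values therefore refer to the spread among these samples, which may be technical.

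In liver, Ugp2 makes UDP-glucose, the activated sugar from which glycogen is built. Glycogenin, encoded by Gyg, primes a new chain, liver glycogen synthase (Gys2) lengthens it and the branching enzyme (Gbe1) adds branches. Liver glycogen phosphorylase (Pygl) releases glucose 1-phosphate from the chain ends. Cyclic AMP drives breakdown through protein kinase A and phosphorylase kinase, of which Phka2 encodes the liver alpha subunit. Ppp1r3b, Ppp1r3c and Ppp1r3g encode subunits that bring protein phosphatase 1 to glycogen, where it reverses those phosphorylations.

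Ugp2 rose 5.61-fold by group means in PTH livers and was higher in each of the 4 PTH libraries than in any PBS library. Pygl fell in PTH livers, from 43.9 ± 14.4 FPKM (SD, n = 3) to 17.5 ± 14.8 FPKM (SD, n = 4), but PTH 1 lay within the PBS range and the call was lost in 14 of 24 alternatives, 5 of them leaving out a single library as the only change. FPKM is a read-based level corrected for transcript length and library size. Gys2 and Ppp1r3b did not pass the test over all 7 libraries, and both had their highest value in PTH 1. Gyg, Gbe1, Phka2 and Ppp1r3c did not pass either. Ppp1r3g was too low to be tested.

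Estimated reads per library, from the deposited totals, ran from 1200698 in PBS 3 to 3281563 in PTH 2. Across the 11861 tested genes the log2 values of PTH 1 correlated with those of PBS libraries at r = 0.870 to 0.889. The other PTH libraries correlated with PBS libraries at 0.799 to 0.882. With PTH 2 to 4, PTH 1 correlated at r = 0.875 to 0.925, against 0.922 to 0.945 among PTH 2 to 4. Genes are not independent replicates in these values. All 9 hepatocyte markers in the table were detected, with summed levels of 14524 to 31881 FPKM under PBS and 18875 to 32719 FPKM under PTH. The 4 fat cell markers were listed at 0, and the 8 skeletal muscle markers summed to at most 1.55 FPKM, with Acta1, Ckm, Mb and Tnnt3 at 0. The 6 handling stress genes (Fos, Jun, Egr1, Hspa1a, Hspa1b and Btg2) summed to 175 to 680 FPKM under PBS and 45.3 to 74.9 FPKM under PTH. Hspa1a, Hspa1b and Btg2 lay wholly below PBS, as 3.2% of tested genes did, while Fos, Jun and Egr1 overlapped. Fos had 4.64, 236 and 1.67 FPKM in PBS 1 to 3 and 3.02, 7.83, 13.8 and 10.5 FPKM in PTH 1 to 4. The 8 neutrophil markers summed to 37.6 to 757 FPKM under PBS and 1.88 to 31.1 FPKM under PTH, with Ly6g listed at 0, and 7 macrophage markers to 106 to 148 and 73.5 to 118 FPKM. By the limma test described with the comparison, 3 of 6 stress genes, 3 of 4 tested neutrophil markers, 4 of 7 macrophage markers and 2 of 9 hepatocyte markers fell, beside 2.37% of all tested genes. In the macrophage (7), stellate cell (8), endothelial (6) and bile duct (5) lists 1 marker each rose, beside 22.8% of all tested genes, and in the last 3 lists 0 fell. Of the lymphocyte list 1 marker was tested and did not pass. Their part in the results on glycogen genes was not tested. In whole liver, fewer cells of a type and less RNA per cell cannot be told apart.

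The promoters of the 2 genes that passed the test are shown because PTH signals through cyclic AMP, whose response element reads TGACGTCA. RefSeq windows (GRCm38.p6) from 250 bases before to 50 after a start were given for 7 of the 9 genes, in 8 windows. Of the 2 Ugp2 windows, that at chr11:21370580-21370879 lies inside the GENCODE span of the gene and is not printed. The printed Ugp2 window lies at chr11:21371218-21371517 on the minus strand, outside that span. The printed Pygl window lies at chr12:70227634-70227933 on the minus strand, inside the GENCODE span of its gene. Both are written 5′ to 3′, and capitals mark the core TGACG or its reverse complement CGTCA.
Ugp2: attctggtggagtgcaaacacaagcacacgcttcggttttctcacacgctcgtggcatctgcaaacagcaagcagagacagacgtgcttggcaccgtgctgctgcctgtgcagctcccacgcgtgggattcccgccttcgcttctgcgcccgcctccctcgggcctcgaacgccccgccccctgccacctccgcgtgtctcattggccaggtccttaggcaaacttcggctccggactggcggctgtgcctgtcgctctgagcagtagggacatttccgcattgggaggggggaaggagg
Pygl: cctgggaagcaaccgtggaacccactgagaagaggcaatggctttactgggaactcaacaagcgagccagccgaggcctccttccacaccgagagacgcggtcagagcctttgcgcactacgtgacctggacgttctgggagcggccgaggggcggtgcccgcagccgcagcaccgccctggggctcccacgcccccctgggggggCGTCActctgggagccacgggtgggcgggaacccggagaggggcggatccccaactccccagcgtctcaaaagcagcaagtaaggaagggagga
The full element, searched on both strands, was in none of the 8 windows and in 1.79% of all 32851 windows. Its core, which the full element contains, was searched on both strands too and was in 3 of the 8 windows, those of Pygl (at position -44 from the start), Gyg and Ppp1r3g, against 20.8% of all windows. Neither of the 2 Ugp2 windows held the core. A match is a description of letters and no match says only that these letters are not in this window. Gys2 and Ppp1r3b had no window in the table used.

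The comparison of PTH with PBS livers was fitted by limma on log2(FPKM + 0.5) over all 11861 tested genes, with p-values adjusted by Benjamini-Hochberg over all of them. Of the 8 glycogen genes tested, 1 rose, 1 fell and 6 did not pass an adjusted p of 0.05. Over all tested genes 22.8% rose and 2.37% fell, 25.2% in all, so 2 of 8 is close to the background share. The median log2 change of all tested genes was 0.55, and that of the 8 glycogen genes was 0.06. After scaling libraries to a common median, 1 of the 8 rose and 1 fell, against 2.96% and 4.75% of all genes. The groups did not overlap for Ugp2 alone of the 8, with PTH above, as for 32.9% of tested genes. No glycogen gene lay wholly below its PBS values, as 3.2% of tested genes did.

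**Figure D1:**
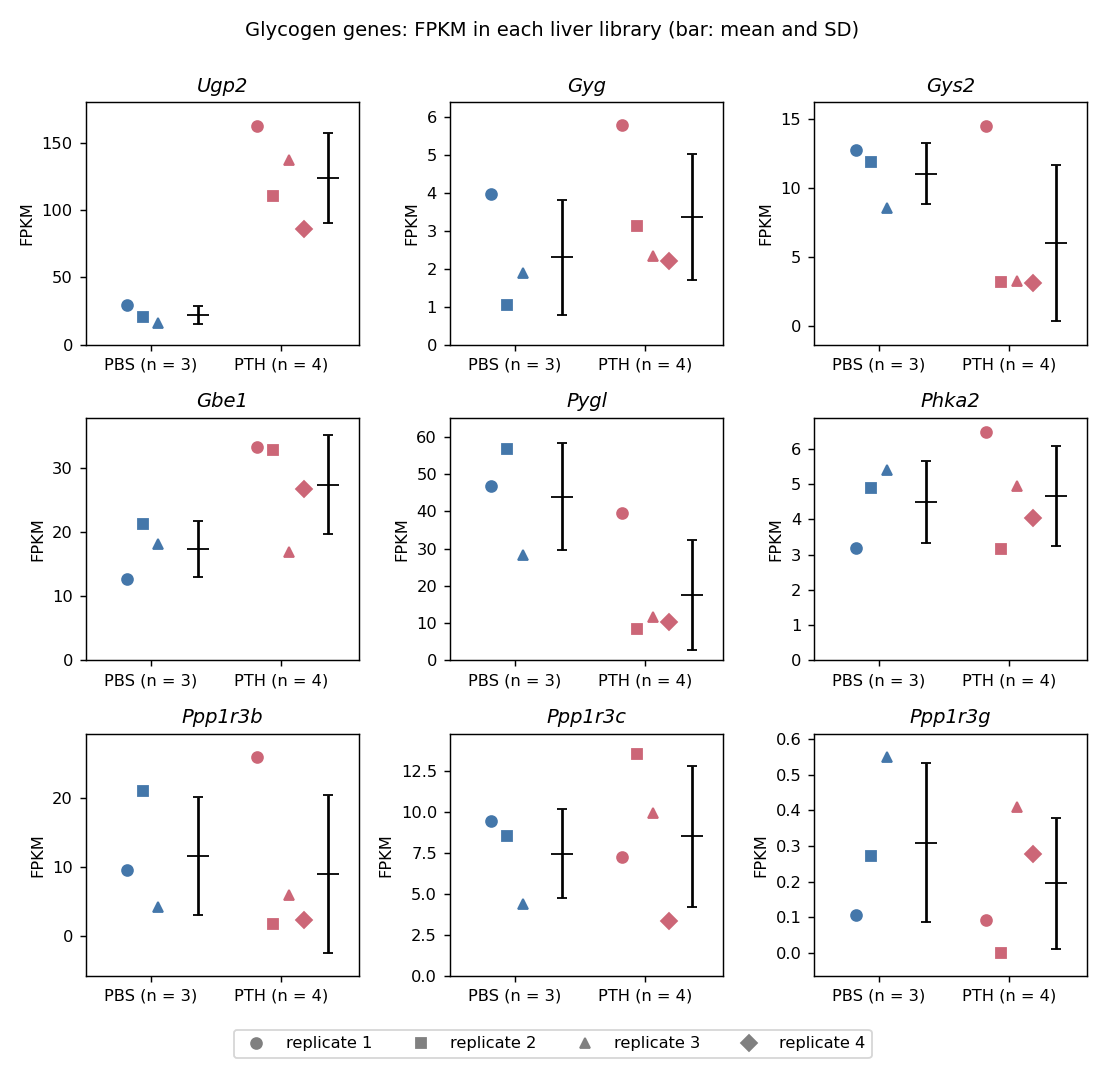
FPKM of the 9 glycogen genes in each library (vertical axes, 1 scale per gene), with PBS in blue and PTH in red. Symbols stand for replicate numbers, which were not used as pairs, and black bars are the mean and SD. Ugp2 stands at 16.3 to 29.4 FPKM under PBS and 85.7 to 163 FPKM under PTH, and in Gys2, Pygl and Ppp1r3b the circle of PTH 1 lies far above the other 3 PTH libraries.

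Ugp2 (ENSMUSG00000001891) is on chromosome 11 from 21321138 to 21371201 (GRCm38, GENCODE M21, minus strand), with 10 exons in its longest coding transcript. It had 29.4, 20.7 and 16.3 FPKM in PBS 1 to 3 and 163, 111, 137 and 85.7 FPKM in PTH 1 to 4. Every PTH library exceeded the highest PBS library, and PTH 1 was the highest of all. The log2 change was 2.46 (SE 0.30, adjusted p = 0.00189 by limma), with a 95% confidence interval of 1.80 to 3.13. The exact two-sided permutation p was 0.0571, the smallest that 35 splits of 3 and 4 libraries allow. Of all tested genes, 99.4% had a lower change. The values rested on 89 to 240 estimated reads in PBS and 565 to 1754 in PTH. The change passed the threshold in all 24 alternatives tried, from 1.72 to 2.68, and lay 1.91 above the all-gene median. Gm12043 overlaps Ugp2 on the other strand, and whether counting used strand is not stated, so reads of the pair cannot be told apart.

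Gyg (ENSMUSG00000019528), on chromosome 3 from 20122084 to 20155317, had 3.98, 1.04 and 1.88 FPKM under PBS and 5.78, 3.12, 2.34 and 2.19 FPKM under PTH. The groups overlapped and PTH 1 was highest. Its log2 change from PBS to PTH was 0.51 (SE 0.44, limma adjusted p = 0.391), close to the all-gene median, and 0.00 under a common median. Depth limited this gene most among those tested: PBS 2 held 4 estimated reads, with an exact Poisson 95% interval of 1.09 to 10.2 reads. Such intervals cover counting error only.

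Gys2 (ENSMUSG00000030244), on chromosome 6 from 142422613 to 142473109 with 17 exons, encodes the enzyme that commits UDP-glucose to glycogen in liver. It had 12.7, 11.9 and 8.54 FPKM under PBS and 14.5, 3.15, 3.25 and 3.08 FPKM under PTH. PTH 2, PTH 3 and PTH 4 lay below every PBS library, while PTH 1 lay above them all. The fitted log2 change was -1.13 (SE 0.48, adjusted p = 0.0992 by limma), with a 95% confidence interval of -2.18 to -0.08 before adjustment. Without PTH 1, the library that stood apart, it was -1.64 (SE 0.30, limma adjusted p = 0.00482). With any other single library left out Gys2 did not pass, at limma adjusted p from 0.131 without PBS 3 to 0.227 without PTH 2. Of 24 alternatives it passed in 3, each without PTH 1 or with array weights. Gys2 had 10 estimated reads in PTH 4, with an exact Poisson 95% interval of 4.80 to 18.4, and 163 in PTH 1.

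Gbe1 (ENSMUSG00000022707), on chromosome 16 from 70313949 to 70569716, had 12.7, 21.4 and 18.2 FPKM under PBS. In PTH it had 33.3, 32.9, 16.9 and 26.7 FPKM. PTH 1, PTH 2 and PTH 4 exceeded all PBS libraries and PTH 3 lay within their range. On the log2 scale the change was 0.63 (SE 0.31, limma adjusted p = 0.149), and 0.01 under a common median. Its locus in the table is also that of 4930423O20Rik, which is listed at 0 in all libraries.

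Pygl (ENSMUSG00000021069), on chromosome 12 from 70190811 to 70231488 with 20 exons, encodes the enzyme that starts glycogen breakdown in liver. It had 46.9, 56.6 and 28.3 FPKM under PBS and 39.5, 8.47, 11.54 and 10.3 FPKM under PTH. PTH 1 lay within the PBS range and the other 3 PTH libraries lay below it. The log2 change was -1.54 (SE 0.47, adjusted p = 0.0362 by limma), with a 95% confidence interval of -2.58 to -0.50 and an exact two-sided permutation p of 0.114. Of all tested genes, 1.48% had a lower change. Pygl passed in 10 of 24 alternatives. Its adjusted p rose to 0.0898 without PBS 1, 0.111 without PBS 2, 0.110 without PTH 2, 0.0868 without PTH 3 and 0.0798 without PTH 4 (limma), and fell to 0.00271 without PTH 1, where its log2 change was -2.02. Under a common median the change was -2.15 (limma adjusted p = 0.0260), and with the deposited scaled counts it was -1.66 (limma adjusted p = 0.0665). F730035M05Rik overlaps Pygl on the other strand.

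Phka2 (ENSMUSG00000031295), on chromosome X from 160502166 to 160598878 with 33 exons, had 3.18, 4.88 and 5.395 FPKM under PBS and 6.47, 3.15, 4.94 and 4.04 FPKM under PTH. The groups overlapped throughout. Its log2 change from PBS to PTH was 0.03 (SE 0.33, adjusted p = 0.944 by limma), with a 95% confidence interval of -0.68 to 0.75, and -0.53 under a common median. This gene varied least of those measured in every library, by 2.05-fold from the lowest to the highest.

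Ppp1r3b (ENSMUSG00000046794), on chromosome 8 from 35375739 to 35388139, encodes the glycogen-targeting subunit named GL that is prominent in liver. It had 9.56, 20.99 and 4.28 FPKM under PBS and 25.9, 1.80, 5.90 and 2.35 FPKM under PTH. PTH 1 exceeded all other libraries, PTH 3 lay within the PBS range, and PTH 2 and PTH 4 lay below it. The fitted log2 change was -0.81 (SE 0.76, limma adjusted p = 0.435), and -1.54 without PTH 1 (limma adjusted p = 0.0621). It varied most, by 14.4-fold from the lowest library to the highest. Its locus in the table spans 1000621 bases and is shared with Cldn23, D8Ertd82e, Eri1, Lonrf1 and Mfhas1, so its level is uncertain.

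Ppp1r3c (ENSMUSG00000067279), on chromosome 19 from 36731731 to 36736653, encodes the subunit known as protein targeting to glycogen. It had 9.49, 8.55 and 4.40 FPKM under PBS and 7.28, 13.6, 9.94 and 3.35 FPKM under PTH. Here PTH 2 was highest and PTH 4 lowest, unlike the order in Ppp1r3b. On the log2 scale the change was 0.09 (SE 0.44, limma adjusted p = 0.883), and -0.49 under a common median. Ppp1r3g (ENSMUSG00000050423), on chromosome 13 from 35958839 to 35970388, had 0.107, 0.272 and 0.549 FPKM under PBS and 0.0910, 0, 0.409 and 0.278 FPKM under PTH. These values came from 0 to 4 estimated reads a library, so no difference was detectable at this depth. The 0 in PTH 2 allows up to 0.260 FPKM, the level that 3 reads would give. Phka2, Ppp1r3b and Ppp1r3g overlap Gm15243, Gm45469 and Gm30127 on the other strand.

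Among PBS libraries the order of mean levels was Pygl, Ugp2, Gbe1, Ppp1r3b, Gys2, Ppp1r3c, Phka2, Gyg and Ppp1r3g. Neighbours in that order overlapped in their library ranges except Gyg and Ppp1r3g. In PTH livers Ugp2 led at 124 ± 33.2 FPKM (SD, n = 4), and no PTH library of Gbe1, next at 27.5 ± 7.68 FPKM, reached the lowest Ugp2 value. Pygl came after Gbe1 there, and its range overlapped that of Gbe1.

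**Figure D2:**
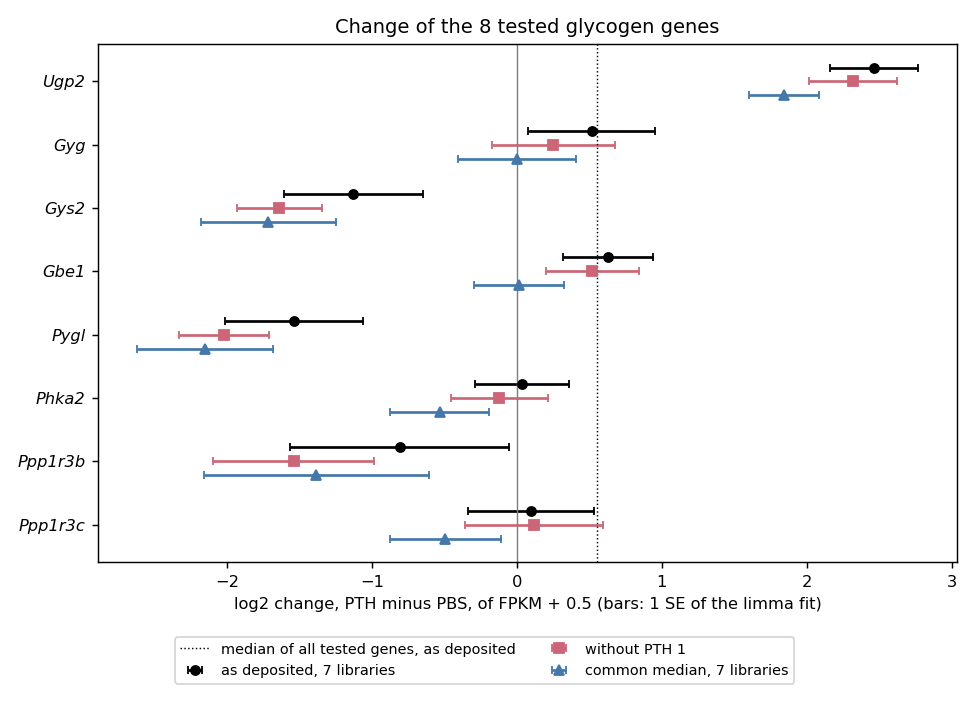
Log2 change from PBS to PTH of the 8 tested glycogen genes (horizontal axis, FPKM + 0.5) as deposited with 7 libraries (black), without PTH 1 (red) and with libraries scaled to a common median (blue); bars are 1 SE. Ugp2 lies between 1.84 and 2.46 and Pygl between -2.15 and -1.54 in the 3 fits, and leaving out PTH 1 moves Gys2 from -1.13 to -1.64.

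How many glycogen genes were called lower depended on single libraries. Without PTH 1, 2 of 8 fell (Pygl and Gys2) and 1 rose, against 3.75% and 23.5% of the 11640 genes then tested. With a common median and without PTH 1, 3 fell, Ppp1r3b being the third (limma adjusted p = 0.0429), and 1 rose, against 8.29% and 5.15% of genes. Without PBS 1, PBS 2, PTH 2, PTH 3 or PTH 4, 0 of 8 fell by limma, and 1 fell without PBS 3. Ugp2 was the gene called higher in each of these fits.

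Ratios between glycogen genes within a library depend on the scaling between libraries only through the 0.5 FPKM added to each level. They are given as a description. The share of all gene pairs whose groups do not overlap was not computed. Of single tested genes, 32.9% lay wholly above PBS in PTH. The log2 ratio of Ugp2 to Gys2 was 1.17, 0.77 and 0.89 in PBS and 3.44, 4.93, 5.20 and 4.59 in PTH. The groups did not overlap, PTH 1 included, and the geometric mean ratio was 1.93 in PBS and 23.2 in PTH. For Ugp2 to Pygl it was -0.67, -1.43 and -0.78 in PBS and 2.03, 3.63, 3.51 and 3.001 in PTH, again without overlap. Thus Ugp2 was below Pygl in all 3 PBS libraries and above it in all 4 PTH libraries. Gbe1 to Gys2 ran from -0.01 to 1.05 in PBS and from 1.17 to 3.20 in PTH. Gyg to Gys2 ran from -3.004 to -1.56 in PBS and from -1.26 to -0.01 in PTH. Gyg overlapped on its own, and it had 4 and 7 estimated reads in PBS 2 and PBS 3. Both ratios were without overlap by a narrow gap, with PTH 1 nearest to PBS. Gys2 to Pygl was -1.84, -2.20 and -1.67 in PBS and -1.41, -1.30, -1.69 and -1.59 in PTH, a range of 0.91 over the 7 libraries. Its groups overlapped only narrowly, through PTH 3 just below PBS 3. PTH 1, PTH 2 and PTH 4 lay above every PBS library. Over the same libraries the FPKM of Gys2 varied 4.71-fold and that of Pygl 6.68-fold. In PTH 2 to 4 Gys2 had 3.15, 3.25 and 3.08 FPKM but scaled counts of 44.0, 45.5 and 17.2. Its FPKM in PTH 4 thus did not follow its scaled count. The range of the Gys2 to Pygl ratio in scaled counts was not computed. Ppp1r3b to Ppp1r3c ran from -0.04 to 1.25 in PBS and from -2.61 in PTH 2 to 1.76 in PTH 1. Ppp1r3c to Gys2 and Phka2 to Pygl had higher means in PTH (0.64 against -0.58, and -1.55 against -3.13) with groups that overlapped through PTH 1.

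**Figure D3:**
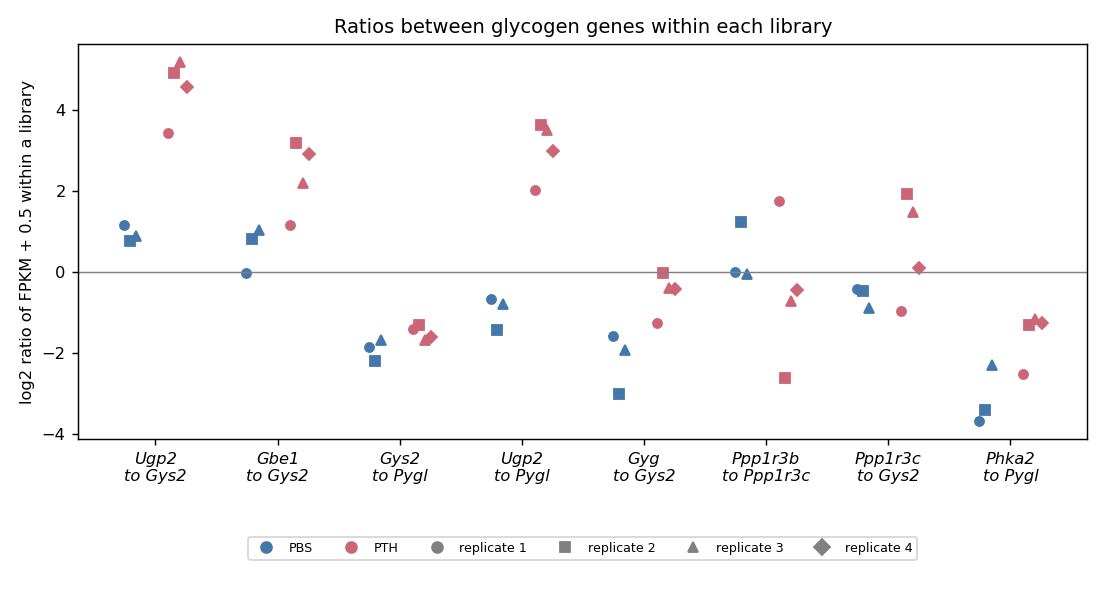
Log2 ratio of FPKM + 0.5 between pairs of glycogen genes (vertical axis) in each library, PBS in blue and PTH in red, with symbols for replicate numbers. Ugp2 to Gys2 is 0.77 to 1.17 in PBS and 3.44 to 5.20 in PTH. Gys2 to Pygl is -2.20 to -1.67 in PBS and -1.69 to -1.30 in PTH.

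By Pearson correlation of log2(FPKM + 0.5) over the 7 libraries, among genes with a mean of at least 10 FPKM, the genes most like Ugp2 were Grina (r = 0.9985, rho = 1) and Ncor1 (r = 0.997, rho = 1). Those most like Pygl were Pbld1 (r = 0.990, rho = 0.964) and Pecr (r = 0.988, rho = 1). Pecr had 21.3 FPKM in PTH 1 and 1.78 to 4.39 FPKM in the other 3 PTH libraries, a split of the same kind as in Pygl. Since Pecr was picked by its correlation with Pygl in these libraries, the shared split is no separate observation. For Gbe1 they were Irgm1 (r = 0.982, rho = 0.929) and Irf7 (r = 0.969, rho = 0.964), both known as interferon-responsive genes, and for Ppp1r3b they were Fdps (r = 0.993, rho = 1) and mt-Nd1 (r = 0.983, rho = 0.964). Each pair was the top 2 of 3876 genes over 7 libraries in 2 groups, and these are descriptions with no test.

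The surroundings of these genes were read from 65 further genes of glycogen and glucose handling, of which 58 were tested. Of these, 16 rose, 2 fell and 40 did not pass, beside 22.8% higher and 2.37% lower among all tested genes, so these counts are near the background. Their median log2 change was 0.61, beside 0.55 for all tested genes. Under a common median 4 of 58 rose (Ppp1r2, Irs1, Gsk3a and Ugdh) and 2 fell, beside 2.96% and 4.75% of all genes. The groups did not overlap for 22 of 58 with PTH above and for 1 with PTH below, beside 32.9% and 3.2% of all genes. The role groups below hold 2 to 16 tested genes each, and their counts are descriptions.

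Of 13 genes of glucose entry, phosphorylation and release, 2 fell and 1 rose, beside 2.37% and 22.8% of all tested genes. Under a common median 2 fell and 0 rose by limma. G6pc, the catalytic subunit of glucose 6-phosphatase that frees glucose for export, had 42.1, 78.2 and 36.8 FPKM under PBS, and in PTH 1 to 4 it had 9.42, 2.64, 16.1 and 1.22 FPKM. Every PTH library lay below every PBS library, with a log2 change of -3.20 (SE 0.66, limma adjusted p = 0.00905). Slc37a4, which carries glucose 6-phosphate to that enzyme, had 35.3, 18.7 and 18.4 FPKM under PBS and 18.6, 4.49, 3.39 and 3.35 FPKM under PTH, where PTH 1 again stood with PBS. It changed by -1.93 on the log2 scale (SE 0.52, limma adjusted p = 0.0233), and it lost the call without PBS 1, PTH 2, PTH 3 or PTH 4 (limma adjusted p up to 0.0757). G6pc3, a widely expressed relative of G6pc, rose from 1.13, 0.963 and 0 FPKM to between 2.22 and 3.31 FPKM (log2 change 1.67, limma adjusted p = 0.0211, lost without PBS 3 or PTH 2). The glucose transporter gene Slc2a2 did not pass, with a log2 change of 0.11.

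Of 10 genes of other uses and sources of UDP-glucose, 3 rose and 0 fell, near the 22.8% of all tested genes that rose, and 1 rose under a common median. Ugdh, which oxidises UDP-glucose to UDP-glucuronate, had 45.4, 25.9 and 29.8 FPKM under PBS, against 158, 233, 179 and 171 FPKM after PTH. It changed by 2.47 on the log2 scale (SE 0.28, limma adjusted p = 0.00149), beside 2.46 for Ugp2, the enzyme that supplies its substrate. Uxs1, which turns UDP-glucuronate into UDP-xylose, rose from 2.33 ± 0.415 FPKM (SD, n = 3) to 9.69 ± 4.53 FPKM (SD, n = 4). Ugcg, which puts glucose from UDP-glucose onto ceramide, had 7.95, 4.21 and 10.01 FPKM under PBS and 8.62 FPKM in PTH 1, against 65.5, 32.3 and 67.7 FPKM in PTH 2 to 4. In the fit with all libraries Ugcg was called higher (log2 change 2.19, limma adjusted p = 0.0260), though PTH 1 lay within the PBS range. It lost the call without PBS 1, PBS 2, PTH 2, PTH 3 or PTH 4, and under a common median (limma adjusted p = 0.165). The galactose pathway genes Galt, Galk1 and Galm did not pass, with log2 changes of 0.00, -0.02 and -0.66.

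Of 9 genes of protein phosphatase 1, its glycogen subunits and inhibitors, 6 were tested, 3 rose and 0 fell, beside 22.8% of all tested genes that rose, and 1 rose under a common median. Ppp1r2, which encodes an inhibitor of the phosphatase, had 4.76, 2.68 and 3.60 FPKM under PBS and 11.01, 14.2, 14.1 and 8.90 FPKM under PTH, with a log2 change of 1.59 (SE 0.30, limma adjusted p = 0.00689). The catalytic subunit gene Ppp1ca rose from 23.6 ± 8.36 to 43.7 ± 4.52 FPKM, and the glycogen subunit gene Ppp1r3e from 1.002 ± 0.896 to 3.23 ± 1.15 FPKM (SD, n = 3 and n = 4). Ppp1ca lost its call without PBS 2, PBS 3, PTH 1, PTH 2 or PTH 3, and Ppp1r3e without PBS 1, PBS 3, PTH 2 or PTH 3. Neither of those calls held under a common median (limma adjusted p = 0.408 and 0.203). The muscle glycogen subunit gene Ppp1r3a was listed at 0 in PBS and at most at 0.0647 FPKM under PTH.

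Of 16 upstream kinases and receptors, 6 rose and 0 fell, beside 22.8% of all tested genes that rose, and 2 rose under a common median. Irs1, an insulin receptor substrate, rose from 2.25 ± 0.843 FPKM (SD, n = 3) to 9.15 ± 2.44 FPKM (SD, n = 4), with a log2 change of 1.82 (SE 0.32, limma adjusted p = 0.00572). Gsk3a, a kinase that inactivates glycogen synthase, rose from 5.89 ± 2.89 to 19.7 ± 4.47 FPKM, with a log2 change of 1.74 (SE 0.34, limma adjusted p = 0.00751). Both held with each library left out and under a common median. Prkar1a, a regulatory subunit of protein kinase A, and Prkaa2, a catalytic subunit of AMP-activated kinase, rose by 1.03 and 1.05 on the log2 scale, and under a common median neither passed (limma adjusted p = 0.210 and 0.238). Prkar1a lost its call without PBS 2 or PTH 2, and Prkaa2 without PBS 2, PBS 3 or PTH 3. The glucagon receptor gene Gcgr did not pass, with 31.4 ± 12.5 FPKM (SD, n = 3) in PBS and 22.3 ± 7.13 FPKM (SD, n = 4) in PTH.

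Of 5 other synthesis and breakdown enzymes tested, 1 rose, beside 22.8% of all tested genes. It was the phosphoglucomutase relative Pgm2l1, which had 0.509 to 1.19 FPKM under PBS and 1.73 to 2.86 FPKM under PTH (log2 change 1.20, limma adjusted p = 0.0282). It lost the call in 5 of the 7 fits with a library left out, keeping it without PBS 2 or PTH 1. The muscle synthase gene Gys1 and the brain phosphorylase gene Pygb were at 1.18 and 2.15 FPKM under PBS, against 11.1 FPKM for Gys2 and 43.9 FPKM for Pygl on the same scale. Of 6 phosphorylase kinase and calmodulin genes tested, 0 passed by limma, the nearest being Calm3 (log2 change 0.91, limma adjusted p = 0.0596), and 2 passed with scaled counts. Of 4 genes of laforin, malin and glycogen turnover, 2 were tested and both rose, beside 22.8% of all tested genes: Stbd1, which binds glycogen, from 9.997 ± 2.94 to 29.8 ± 10.1 FPKM and Gabarapl1, an autophagy gene, from 42.6 ± 12.5 to 85.9 ± 26 FPKM. Neither held under a common median. Stbd1 lost its call without PBS 3 or PTH 2, and Gabarapl1 kept it only without PBS 1 or PTH 1. Of the 18 calls in this wider set, 6 held with each of the 7 libraries left out in turn: G6pc, Ppp1r2, Irs1, Gsk3a, Ugdh and Uxs1.

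**Figure D4:**
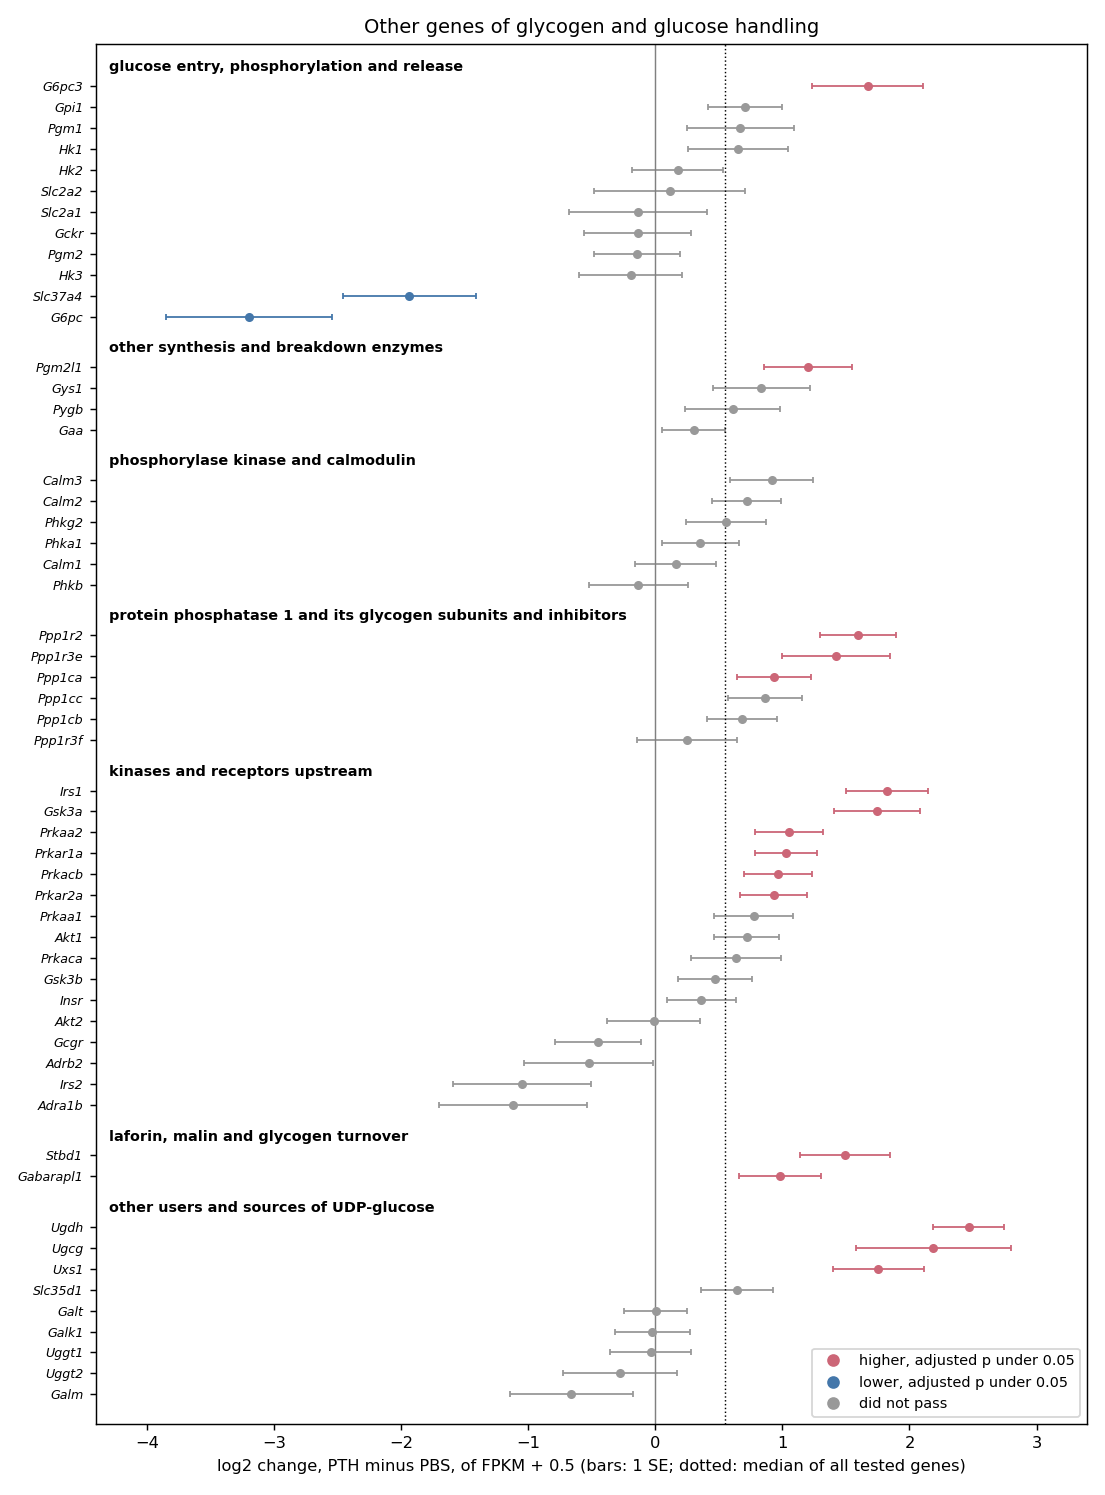
Log2 change from PBS to PTH (horizontal axis, FPKM + 0.5, bars 1 SE) of 55 of the 58 tested genes of glycogen and glucose handling outside the 9, grouped by role; red passed higher, blue passed lower and grey did not pass, and the dotted line is the all-gene median of 0.55. G6pc and Slc37a4 are the 2 lower calls and Ugdh, at 2.47, is the highest.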

How the data were processed

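RNA of 7 mouse liver libraries was sequenced, and the treatment label gave the groups. The authors deposited, per the file headers, FPKM and a count column per gene and library. Per the submitters' processing notes Bowtie 0.12.2 and the build mm8 were used; the quantifier is not named in the labels. Positions in the table match GRCm38: 21839 identifiers are in GENCODE M21, and for 95.0% of them the table's locus covers the M21 gene to within 5000 bases. The deposited count columns are a scaled signal and not whole: in each library 91.9% to 94.0% of values are whole multiples (within 0.05) of a single step. No count test was therefore run, and a value divided by that step gave estimated reads. The deposited length column was not used.

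A gene was tested if 3 or more libraries reached 0.5 FPKM. The limma 3.58.1 package (R 4.3.3) fitted log2(FPKM + 0.5), using eBayes with its trend and robust options, and two-sided p-values were adjusted by Benjamini-Hochberg over all tested genes with a threshold of 0.05. Changes of low genes are understated on this scale. Permutation tests were exact and two-sided (SciPy 1.17.1). The fit was also run on simulated independent normal values without a library-wide shift. That setting differs from these data, where the median log2 change of all tested genes was 0.55, so no conclusion is drawn from it. Replicate numbers were not used as pairs, since same-numbered libraries did not deviate together.

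The members and lists were chosen with earlier results of these data known. Named were the 9 genes, of each role group the called genes (at most 4, by smallest p) or else the 1 of smallest p, and the 2 genes most like each tested member with a mean of at least 10 FPKM, predicted genes left out. Others, such as Gcgr, Slc2a2 and galactose pathway genes, were added after their values were seen. A few genes of the wider set are counted but not reported here by name. Promoters came from RefSeq. Protein sequences were planned and are not used here. Alternatives were leaving out each library, a replicate block, scaling to a common median (also with each library omitted) or by quantiles, dropping the filter or raising it to 1 FPKM, a pseudocount of 0.1 or of 1, eBayes without its options, array weights, and scaled counts (pseudocount 5, minimum 5).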

Additional observations from a re-analysis of the deposited data

Results flagged for a closer look

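The highest or lowest of the 4 PTH libraries was set against the other 3 for 34 values named in the text, and 6 had a gap to the nearest library above Dixon's 95% critical value. Chance gives such a gap in about 1 of 20 groups if the groups are independent and the values normally distributed. The 34 values are not independent, since they share libraries and Pygl enters both alone and in a ratio. The count of 6 therefore cannot be set against that rate. Gaps of single genes were taken on FPKM, and gaps on the log2 scale of the fit are not given. In 5 of the 6 the library apart was PTH 1. Gys2 had 14.5 FPKM in PTH 1, and the gap took 0.986 of the group's range. Pygl had 39.5 FPKM in PTH 1 with a gap of 0.901, and Ppp1r3b 25.9 FPKM with a gap of 0.830, just past that value. Slc37a4 had 18.6 FPKM in PTH 1 with a gap of 0.925. The log2 ratio of Phka2 to Pygl was -2.52 in PTH 1 with a gap of 0.893. Gsk3a had 26.4 FPKM in PTH 2 with a gap of 0.867. The cause of these gaps was not tested.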

How the results depend on the processing

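Ugp2 rose in all 24 alternatives. Over all genes, the 2709 higher and 281 lower calls became 351 and 563 under a common median and 467 and 510 under quantile normalization. With 1 library left out they ran from 998 to 2734 and from 122 to 437, and with a common median as well from 56 to 600 and from 154 to 965 (108, 160, 162, 600, 56, 122 and 119 higher without PBS 1 to 3 and PTH 1 to 4, and 154, 965 and 184 lower without PBS 1, PTH 1 and PTH 2). Of the glycogen genes, the 1 lower call, Pygl, became 0 without a filter and with scaled counts, 2 with array weights, 0 to 2 with 1 library left out, and 0 to 3 with a common median as well. In the wider set the 16 higher calls became 4 under a common median and 4 under quantile normalization, 6 to 16 with 1 library left out, and 1 to 6 with a common median as well. Its 2 lower calls became 1 to 3 and 1 to 7. The log2 difference of the Gys2 to Pygl ratio between groups, 0.41 in FPKM, was 0.18 in scaled counts. The cause was not tested.

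Of the uncalled genes, Phka2, Ppp1r3c, Gyg and Gbe1 changed sign in some alternatives. Gys2 and Ppp1r3b stayed negative in all 24, from -2.19 to -0.95 and from -2.08 to -0.27. Phka2 was -0.53 under a common median and -0.51 under quantile normalization, -0.17 to 0.19 with 1 library left out, and -0.83 to -0.32 with a common median as well (-0.45 without PBS 2 and -0.67, -0.34, -0.58 and -0.54 without PTH 1 to 4). Ppp1r3c was -0.49 under a common median and -0.49 under quantile normalization, -0.22 to 0.45 with 1 library left out, and -0.74 to -0.19 with a common median as well (-0.39 and -0.35 without PBS 1 and PBS 2, and -0.45, -0.70 and -0.62 without PTH 1 to 3). Under a common median Gyg was -0.37 without PBS 2 and -0.24 without PTH 1, and Gbe1 was -0.29, -0.074, -0.038 and -0.051 without PBS 1, PTH 1, PTH 2 and PTH 4.

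Same-numbered libraries deviated from their group means with correlations of -0.031, -0.156 and 0.010. No PBS library correlated best with its own number, so the numbers were not used as pairs. With so few libraries this check cannot exclude a weak pairing. With the replicate block, all-gene calls were 1558 higher and 177 lower, glycogen genes 1 and 0, and the wider set 8 higher. Depth limits Ppp1r3g and Gyg most.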

Other observations

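Adra1b, Galm and Irs2, outside the genes named by rule, were picked after their values were seen. PTH 1 lay within the PBS range in Adra1b and above it in Galm, but was the lowest library in Irs2. Adra1b, the alpha-1B adrenergic receptor through which adrenaline raises calcium in hepatocytes, had 5.78, 14.2 and 4.29 FPKM under PBS and 10.7, 1.92, 2.27 and 1.53 FPKM under PTH. It did not pass over 7 libraries (limma adjusted p = 0.167) and passed without PTH 1 (limma adjusted p = 0.0163). Galm, a mutarotase of galactose use, had 8.53, 11.97 and 6.35 FPKM under PBS and 13.0, 4.90, 5.75 and 1.99 FPKM under PTH, and did not pass with 7 libraries or without PTH 1 (limma adjusted p = 0.319 and 0.0655). Irs2 had 6.65, 30.8 and 6.15 FPKM under PBS and 2.33, 5.85, 5.65 and 7.93 FPKM under PTH, so PBS 2 stood apart there and the groups overlapped.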
